A study of Homo sapiens with 6 samples.

Results

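Gene expression was examined for 53 genes of DNA replication in H929 (NCI-H929), an established human multiple myeloma line that grows as malignant plasma cells. The genes encode the proteins that license origins, unwind and copy DNA and travel with the replication fork. They were taken as a list of symbols chosen with earlier results of these data known. Each symbol matched 1 of the 62703 Ensembl gene IDs in the deposited tables. All 53 genes passed the filter on low counts and were among the 16082 genes tested. The study compared cells kept for 24 h in Mi-2 at 1 µM with cells kept for 24 h in DMSO. Mi-2 is known as a compound that blocks MALT1, a paracaspase of NF-κB signalling, and DMSO is a common solvent. Genotype is labelled WT in both groups, and each treatment has 3 libraries of paired-end RNA sequencing. All libraries come from a single cell line. Every title ends in bio rep 1 and whether the libraries of a group are separate cultures is not stated in the labels. The p-values rest on the spread among these libraries alone, which may be technical.

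Before S phase, the origin recognition complex (ORC) with CDC6 and CDT1 loads the ring-shaped MCM2-7 helicase onto origins in an inactive form. Kinases then recruit CDC45 and the GINS complex, which switch the helicase on, and DNA polymerases alpha, epsilon and delta copy the strands with the sliding clamp PCNA. Many of these genes are induced at the entry into S phase by E2F transcription factors and are low in cells that have left the cycle. In RNA from a whole culture, fewer cells in S phase and less of an mRNA per cell cannot be told apart.

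Total estimated counts ran from 19980689 to 23756745 per library, and the fewest estimated counts of any replication gene in any library were 119, for RPA3. Of 15 plasma cell and myeloma markers, 12 were at 32.5 TPM or more in all 6 libraries, among them SDC1, TNFRSF17, IRF4, PRDM1, XBP1 and CD38, the last at 32.5 to 107 TPM. CD27, CD79A and TNFRSF13B stayed under 1 TPM, with CD27 at 0 in all DMSO libraries. In the same fit FGFR3 (log2 fold change -0.72, edgeR adjusted p = 0.00209), SDC1 and CD38 were lower and MZB1 (0.70, edgeR adjusted p = 0.00576) and IRF4 higher with Mi-2. With a library dropped, the calls of FGFR3 and MZB1 held in all 6 fits, and those of SDC1, CD38 and IRF4 in 4, 3 and 1. Of 43 markers of T and NK cells, myeloid cells, stromal and epithelial cells, erythroid cells and platelets, 36 stayed under 5 TPM in every library and 9 were at 0 throughout, among them CD3D, CD8A, COL1A2, COL3A1 and PF4. The summed TPM of the T and NK markers was 87.6 to 93.8 with DMSO and 96.8 to 118 with Mi-2, nearly all of it NCAM1 and CD3E, and that of the myeloid markers was 29.4 to 40.01 and 56.6 to 78.5, nearly all of it CD68. The sum for stromal and epithelial markers was 69.99 to 90.4 with DMSO and 89.2 to 125 with Mi-2, mostly PECAM1, and that for erythroid and platelet markers 1.78 to 18.6 and 2.28 to 20, most of it HBA1 in libraries 2 and 3 of each group. CD68 (log2 fold change 0.94, edgeR adjusted p = 0.00507), KRT18 (1.07, edgeR adjusted p = 0.00853), CD3E (0.50, edgeR adjusted p = 0.018) and PECAM1 (0.35, edgeR adjusted p = 0.0488) were called higher with Mi-2, in 6, 6, 5 and 0 of the 6 fits with a library dropped. The part of these markers in the results on replication genes was not tested.

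With Mi-2, 44 of the 53 replication genes were lower and 0 were higher at an adjusted p under 0.05 (edgeR quasi-likelihood test, Benjamini-Hochberg adjustment over all tested genes). Over all genes tested, 6.03% were called lower and 5.02% higher. Because the 53 genes were chosen with earlier results of these data known, the contrasts with all genes are descriptive. At an unadjusted p under 0.05, 48 of the replication genes were lower and 0 higher, against 14.1% and 12.9% of all genes tested. DESeq2 called 46 lower and 0 higher, against 7.97% and 6.51%. The median log2 fold change (Mi-2 minus DMSO) of the 53 genes was -0.84, against 0.00 over all genes tested, and 52 of the 53 values were negative. At least a 2-fold fall was found in 8 of them, DSCC1, MCM10, GINS1, CDC45, MCM4, MCM2, CLSPN and POLE2, where 0.672% of all genes tested were called and at least 2-fold lower. In 49 of the 53 the CPM values (estimated counts relative to the library total, scaled between libraries by the TMM method) of all Mi-2 libraries lay below those of all DMSO libraries, against 16.6% of all genes tested. The 9 genes that did not pass were ORC2, ORC3, ORC5, ORC6, CDT1, DBF4, PRIM2, RFC1 and RPA3.

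**Figure D1:**
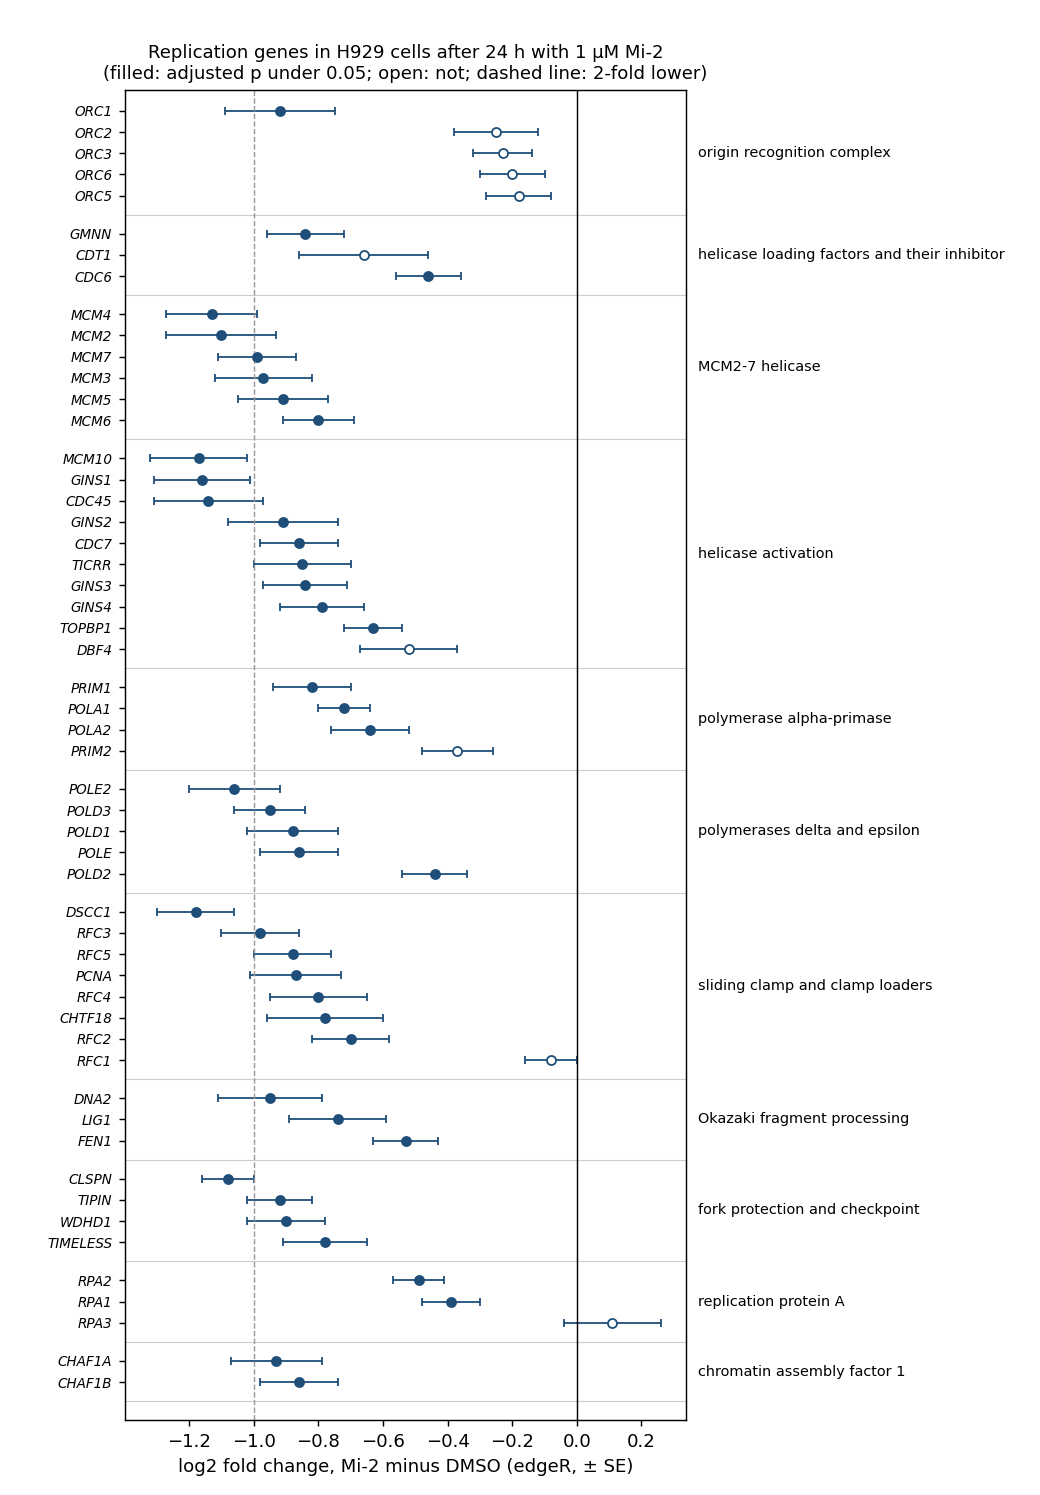
The x axis gives the log2 fold change of each of the 53 replication genes, Mi-2 minus DMSO, with a standard error derived from the edgeR F statistic. The y axis lists the genes by sub-complex. Filled points have an adjusted p under 0.05, and the 9 open points do not. All 6 MCM2-7 genes lie between -1.13 and -0.80, while ORC2, ORC3, ORC5, ORC6, RFC1 and RPA3 lie between -0.25 and 0.11.

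Because most of these genes fell together, their promoters were read for short motifs. RefSeq's table (GRCh38.p14; 250 bases before to 50 after each start) held 45 of the 53 genes, 9 of them with several starts. MCM4, MCM5, GINS4, POLD3, DSCC1, DNA2, RPA2 and RPA3 were not matched. An E2F motif, searched as TTTCCCGC, TTTCGCGC, TTTGCCGC or TTTGGCGC on either strand, was in the promoter of 22 of the 45 genes (48.9%), against 3.99% of the 27305 genes in the table and 6.64% of the 11154 tested genes in it. It was found in 20 of the 37 genes that were called lower and in 2 of the 8 that were not, ORC3 and CDT1. A CCAAT box (CCAAT on either strand) was in 27 of the 45 (60.0%), against 43.3% of the tested genes. The CHR motif of late cell cycle genes (TTTGAA or TTCGAA, either strand) was in 2 of the 45 (4.44%), against 15.6% of the tested genes. A match is a run of letters and does not show that a factor was bound, and no match says only that these letters are not in the window. The shares over the 45 genes describe the list as chosen and do not use the change with Mi-2. A link between a motif and the change was not tested.

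Stretches before the start of 6 genes that fell and of 2 that did not pass follow, 5′ to 3′ along the gene's strand, with E2F motif matches in capitals and positions counted from the RefSeq start (-1 is the base before it). They were chosen to show single, paired and overlapping matches that lie outside annotated exons, and 2 genes without a match. Genes that fell without a match, such as ORC1, CHAF1A and MCM10, are not shown. Neither are ORC3 and CDT1, which have a match and did not pass. The choice therefore does not show how often a match goes with a fall, which was 20 of the 37 called genes and 2 of the 8 others.
MCM6 (chr2:135876514-135876603, minus strand): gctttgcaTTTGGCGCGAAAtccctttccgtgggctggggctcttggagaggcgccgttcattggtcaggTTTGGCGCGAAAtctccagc
MCM3 (chr6:52284883-52284942, minus strand): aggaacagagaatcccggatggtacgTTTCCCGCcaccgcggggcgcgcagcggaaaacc
GMNN (chr6:24775313-24775402, plus strand): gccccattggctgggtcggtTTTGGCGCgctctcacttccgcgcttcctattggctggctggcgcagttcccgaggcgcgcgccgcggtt
CDC7 (chr1:91501012-91501101, plus strand): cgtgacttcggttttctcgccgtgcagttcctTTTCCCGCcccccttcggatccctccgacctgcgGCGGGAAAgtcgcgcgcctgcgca
POLA1 (chrX:24693768-24693857, plus strand): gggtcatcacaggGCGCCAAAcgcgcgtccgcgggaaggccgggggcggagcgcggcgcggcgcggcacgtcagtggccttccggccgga
TIPIN (chr15:66356725-66356785, minus strand): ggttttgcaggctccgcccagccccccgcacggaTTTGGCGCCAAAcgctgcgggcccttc
ORC2 (chr2:200963681-200963770, minus strand): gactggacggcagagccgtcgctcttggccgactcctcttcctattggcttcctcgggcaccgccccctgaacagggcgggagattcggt
RFC1 (chr4:39366376-39366465, minus strand): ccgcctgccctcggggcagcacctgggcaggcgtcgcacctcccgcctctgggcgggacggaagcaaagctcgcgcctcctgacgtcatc
The MCM6 stretch holds 4 matches as 2 overlapping pairs at -152 and -148 and at -90 and -86, each pair forming the same run, TTTGGCGCGAAA. The TIPIN stretch holds a pair at -66 and -62 that forms the palindrome TTTGGCGCCAAA. CDC7 has 1 match on each strand, at -68 and -34, GMNN 1 at -80, MCM3 1 at -174 (with another at -4, outside the stretch) and POLA1 1 at -137. ORC2 and RFC1 have none in the whole of the promoter listed. GMNN, CDC7 and TIPIN each have a second listed start, whose promoter holds no match.

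In the origin recognition complex, which marks origins, only ORC1 of the 5 listed genes was called lower. ORC1, the subunit whose level varies with the cell cycle (chromosome 1, 52372829 to 52404459, minus strand, in the GENCODE 29 annotation of GRCh38), had CPM of 43.8, 48.5 and 55.2 with DMSO and 21.8, 22.2 and 34 with Mi-2 (libraries 1, 2 and 3 in each group, as in all values that follow). Every Mi-2 library was below every DMSO library, and Mi-2 library 3 was the highest of its group. The log2 fold change was -0.92 ± 0.17 (SE, as for all log2 fold changes that follow; 1.89-fold lower, edgeR adjusted p = 0.0114), and the call held with any single library left out (adjusted p up to 0.0497). ORC2, ORC3, ORC5 and ORC6 had log2 fold changes of -0.25 ± 0.13, -0.23 ± 0.09, -0.18 ± 0.10 and -0.20 ± 0.10, with edgeR adjusted p of 0.116 to 0.285. ORC5, with the smallest change, had CPM of 38.5, 38.8 and 35.6 with DMSO and 32.2, 36.9 and 30.9 with Mi-2, and these ranges overlapped. On the TPM scale, which is corrected for gene length, ORC6 had the highest level of the 5 genes in both groups, at 57.7 ± 5.47 with DMSO and 48.3 ± 4.35 with Mi-2 (SD, n = 3). ORC2 was the lowest with DMSO (15 ± 0.295) and ORC1 the lowest with Mi-2 (10.4 ± 2.6).

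Among the factors that load the helicase, CDC6 and the inhibitor GMNN fell, and CDT1 did not pass the threshold. CDC6, an ATPase that joins ORC on DNA, had CPM of 170.1, 158 and 172 with DMSO and 109.9, 116 and 139 with Mi-2. Its ranges were separate and the fall was small (-0.46 ± 0.10, 1.37-fold, edgeR adjusted p = 0.0222). Of the 6 fits with 1 library dropped, CDC6 was called only in the one that dropped Mi-2 library 3 (highest adjusted p 0.0922). CDT1, which brings MCM2-7 to origins, had CPM of 138, 154 and 167 with DMSO and 75.6, 77.7 and 136 with Mi-2. Mi-2 libraries 1 and 2 were far below the DMSO libraries and Mi-2 library 3 only just below the lowest of them. The log2 fold change of CDT1 was -0.66 ± 0.20 (edgeR adjusted p = 0.0649), and without Mi-2 library 3 CDT1 was called lower (adjusted p = 0.00199), as it was by DESeq2 (adjusted p = 0.00478). GMNN encodes geminin, which binds CDT1 and blocks a second round of loading. It had CPM of 44.8, 41.6 and 48.2 with DMSO and 20.8, 25.7 and 28.5 with Mi-2 and fell 1.80-fold (-0.84 ± 0.12, edgeR adjusted p = 0.00516), with all Mi-2 libraries well below all DMSO libraries.

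All 6 genes of the MCM2-7 helicase fell, with a median of -0.98. MCM2 (chromosome 3, 127598223 to 127622436, plus strand) had CPM of 274, 279 and 322 with DMSO and 106, 122 and 179 with Mi-2. MCM3 had CPM of 248, 279 and 311 with DMSO and 116, 135 and 176 with Mi-2. MCM4 had CPM of 441, 482 and 513 with DMSO and 185, 203 and 267 with Mi-2. In these 3 genes DMSO library 3 was the highest of all libraries and Mi-2 library 1 the lowest. MCM5 had CPM of 306, 301 and 330.3 with DMSO and 147, 145 and 208 with Mi-2. MCM6 had CPM of 295, 313 and 314 with DMSO and 152, 178 and 199 with Mi-2. MCM7, whose introns carry microRNA genes (chromosome 7, 100092728 to 100101940, minus strand), had CPM of 422, 432 and 474 with DMSO and 200.2, 201 and 266 with Mi-2. No gene had a Mi-2 library within the DMSO range, and in all 6 Mi-2 library 3 was the highest of its group. The log2 fold changes were -1.10 ± 0.17 for MCM2, -0.97 ± 0.15 for MCM3, -1.13 ± 0.14 for MCM4, -0.91 ± 0.14 for MCM5, -0.80 ± 0.11 for MCM6 and -0.99 ± 0.12 for MCM7. Their edgeR adjusted p ran from 0.00262 for MCM4 to 0.00634 for MCM2, and all 6 calls held whichever library was dropped.

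The proteins form a ring with 1 copy of each subunit, but their mRNA levels differed. In deposited TPM, MCM4 was the highest at 351 ± 34.9 with DMSO and 149 ± 26.5 with Mi-2 (SD, n = 3), followed by MCM7 at 238 ± 5.77 and 121 ± 17.5. MCM3 stood at 144 ± 16.8 with DMSO and 73.9 ± 16.9 with Mi-2. MCM5 (112 ± 0.83), MCM2 (109.5 ± 6.2) and MCM6 (101 ± 5.53) followed with DMSO. MCM5 was above MCM2 in DMSO libraries 1 and 2 and below it in library 3. With Mi-2 these 3 genes stood at 59.4 ± 11, 50.4 ± 14.7 and 58.1 ± 6.48. These SDs include shifts that the genes share within a library. MCM5 was above MCM2 in every Mi-2 library (55.5, 50.9 and 71.8 against 39.7, 44.5 and 67.1 TPM), while the place of MCM6 varied with the library. The highest mean was 3.47 times the lowest with DMSO and 2.96 times with Mi-2.

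**Figure D2:**
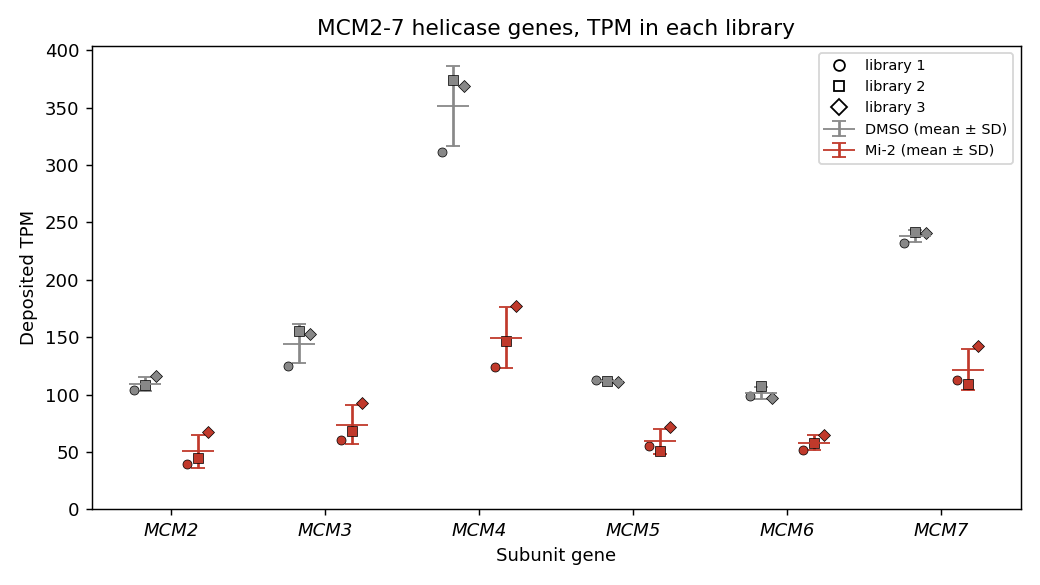
Deposited TPM (y axis, from 0) of the 6 MCM2-7 genes (x axis) in each library, with circles, squares and diamonds for libraries 1, 2 and 3 and bars for the mean ± SD of 3 libraries. MCM4 is the highest gene in both groups, at means of 351 and 149 TPM, and no Mi-2 library reaches the lowest DMSO library of the same gene.

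Genes that activate the helicase held 3 of the 4 largest falls, and 9 of 10 were called. MCM10, which binds the assembled helicase as it starts to unwind (chromosome 10, 13161554 to 13211104, plus strand), had CPM of 78.8, 83.1 and 92.8 with DMSO and 29.3, 36.7 and 46.9 with Mi-2. CDC45, a subunit of the active helicase, had CPM of 65.4, 72.3 and 65.6 with DMSO and 24.9, 26.8 and 40.6 with Mi-2. GINS1, a subunit of its GINS partner, had CPM of 29.5, 27.2 and 27.7 with DMSO and 10.3, 12 and 15.5 with Mi-2. Each was lower in every Mi-2 library than in any DMSO library, with Mi-2 library 1 the lowest and library 3 the highest of the treated group. The log2 fold changes were -1.17 ± 0.15 for MCM10 (edgeR adjusted p = 0.0035), -1.14 ± 0.17 for CDC45 (edgeR adjusted p = 0.00507) and -1.16 ± 0.15 for GINS1 (edgeR adjusted p = 0.0035). The other GINS genes also fell, GINS2 by 1.88-fold (-0.91 ± 0.17), GINS3 by 1.79-fold (-0.84 ± 0.13) and GINS4 by 1.73-fold (-0.79 ± 0.13). TICRR (treslin), which with TOPBP1 helps to place CDC45, fell 1.80-fold (-0.85 ± 0.15), and TOPBP1 fell 1.55-fold (-0.63 ± 0.09).

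CDC7 and DBF4 encode the kinase that starts helicase activation and its activating subunit. CDC7 had CPM of 19.2, 19.2 and 18.9 with DMSO and 9.89, 10.1 and 11.7 with Mi-2, nearly the same in the 3 DMSO libraries and 1.81-fold lower with Mi-2 (-0.86 ± 0.12, edgeR adjusted p = 0.00432). DBF4 had CPM of 42.1, 44.3 and 48.6 with DMSO and 23.4, 35.9 and 34.6 with Mi-2. Mi-2 library 1 was well below Mi-2 libraries 2 and 3, and DBF4 did not pass (-0.52 ± 0.15, edgeR adjusted p = 0.0547). DESeq2 called it lower (adjusted p = 0.0113), and none of the 6 fits that left a library out did (0.0585 to 0.153).

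DNA polymerase alpha with primase makes the primers from which both strands are copied, and 3 of its 4 subunit genes fell. The catalytic subunit gene POLA1 had CPM of 63, 59.99 and 60.1 with DMSO and 36.9, 36.2 and 38 with Mi-2. Its libraries were close together within each group and far apart between groups (-0.72 ± 0.08, edgeR adjusted p = 0.00209). PRIM1, the catalytic primase subunit, had CPM of 56.8, 46.6 and 61.8 with DMSO and 29.9, 29.5 and 33.8 with Mi-2 and the largest fall of the 4 (-0.82 ± 0.12). POLA2 fell by less (-0.64 ± 0.12, edgeR adjusted p = 0.0132), and dropping DMSO library 3 or Mi-2 library 1 ended its call (highest adjusted p 0.0614). On the log2(TPM + 1) scale POLA2 fell by -0.36 and did not pass (limma adjusted p = 0.139). PRIM2, the regulatory primase subunit, had CPM of 21.5, 23.9 and 19.5 with DMSO and 16.1, 17.2 and 16.9 with Mi-2, which did not overlap but did not pass (-0.37 ± 0.11, edgeR adjusted p = 0.0679).

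All 5 genes measured of polymerases delta and epsilon, the main lagging and leading strand enzymes, fell. POLE2, an accessory subunit of polymerase epsilon, had CPM of 17.3, 15.3 and 20.5 with DMSO and 7.99, 8.11 and 9.27 with Mi-2 (-1.06 ± 0.14, edgeR adjusted p = 0.0042). POLD2, an accessory subunit of polymerase delta, had CPM of 156, 173 and 172 with DMSO and 107, 127 and 134 with Mi-2 and the smallest fall of the 5 (-0.44 ± 0.10, edgeR adjusted p = 0.0239). Every Mi-2 library was below every DMSO library for both genes. When 1 library at a time was dropped, POLD2 was called only if that library was number 1 of DMSO or number 3 of Mi-2 (highest adjusted p 0.0891). The catalytic subunit genes POLE (-0.86 ± 0.12) and POLD1 (-0.88 ± 0.14) and the accessory gene POLD3 (-0.95 ± 0.11) fell by 1.81-fold to 1.94-fold and kept their calls in all 6 such fits.

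The sliding clamp and 6 of 7 clamp loader genes fell. PCNA, the clamp that tethers polymerases to DNA (chromosome 20, 5114953 to 5126626, minus strand), had CPM of 108, 108 and 124 with DMSO and 49.5, 61.6 and 74.3 with Mi-2. All Mi-2 libraries were below all DMSO libraries, and the fall was 1.83-fold (-0.87 ± 0.14, edgeR adjusted p = 0.00636). DSCC1, a subunit of the alternative loader that acts in sister chromatid cohesion, had CPM of 48.2, 42.8 and 44 with DMSO and 20.7, 16.8 and 22 with Mi-2 and the largest fall of the 53 genes (-1.18 ± 0.12, 2.27-fold, edgeR adjusted p = 0.00196). Unlike most replication genes it was lowest in Mi-2 library 2. CHTF18, the large subunit of the same loader, had CPM of 75.9, 80.3 and 79.3 with DMSO and 42.6, 33.5 and 61.3 with Mi-2, with Mi-2 library 3 far above the other treated libraries (-0.78 ± 0.18, edgeR adjusted p = 0.0252). Its call held only when DMSO library 1 or Mi-2 library 3 was dropped (highest adjusted p 0.0966).

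RFC1 stood apart from the other subunit genes of replication factor C, the loader of PCNA. RFC1, the large subunit (chromosome 4, 39287456 to 39366375, minus strand), had CPM of 122, 129 and 124 with DMSO and 116, 120.2 and 120.01 with Mi-2. The ranges only just failed to overlap, and the gene did not pass (-0.08 ± 0.08, edgeR adjusted p = 0.56). In deposited TPM the mean of RFC1 was 45 ± 7.89 with DMSO and 45 ± 3.91 with Mi-2 (SD, n = 3), and the log2 difference on the log2(TPM + 1) scale was 0.01. The small subunits fell, RFC2 by 1.62-fold (-0.70 ± 0.12), RFC3 by 1.97-fold (-0.98 ± 0.12), RFC4 by 1.74-fold (-0.80 ± 0.15) and RFC5 by 1.83-fold (-0.88 ± 0.12), and each call held whichever library was dropped.

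Genes that process Okazaki fragments, the short pieces of the lagging strand, all fell. FEN1, the flap endonuclease, had CPM of 187, 179.6 and 196 with DMSO and 119, 121 and 150.1 with Mi-2 (-0.53 ± 0.10, edgeR adjusted p = 0.0142). DNA2, a nuclease and helicase for long flaps, had CPM of 11.8, 11.4 and 12.7 with DMSO and 5.58, 5.48 and 7.51 with Mi-2 (-0.95 ± 0.16, edgeR adjusted p = 0.00815). LIG1, the ligase that seals the fragments, had CPM of 92.6, 93.9 and 96.9 with DMSO and 48.9, 47.4 and 73.3 with Mi-2 (-0.74 ± 0.15, edgeR adjusted p = 0.0161). In LIG1 the value of Mi-2 library 3 lay about midway between the other Mi-2 libraries and the DMSO libraries. Dropping DMSO library 3 or Mi-2 library 1 ended the call of FEN1 (highest adjusted p 0.0642), and LIG1 was called only when DMSO library 1 or Mi-2 library 3 was dropped (highest adjusted p 0.0695).

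The 4 genes of fork protection and checkpoint signalling fell, with a median of -0.91. CLSPN encodes claspin, which passes the stalled-fork signal to the kinase CHK1 (chromosome 1, 35720218 to 35769967, minus strand). It had CPM of 69.4, 64.6 and 64.2 with DMSO and 30.3, 30.7 and 32.9 with Mi-2, with the lowest adjusted p of the 53 genes (-1.08 ± 0.08, edgeR adjusted p = 0.0015). The 3 Mi-2 libraries lay close together, with library 3 only a little above the other two. TIMELESS, which with TIPIN holds the fork together, had CPM of 133, 127 and 136 with DMSO and 71.1, 66 and 94.4 with Mi-2 (-0.78 ± 0.13). TIPIN (-0.92 ± 0.10) and WDHD1, which links polymerase alpha to the helicase (-0.90 ± 0.12), fell by 1.89-fold and 1.87-fold.

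Replication protein A coats single-stranded DNA, and its genes had the smallest median change (-0.39) after those of the origin recognition complex (-0.23). RPA1, the large subunit, had CPM of 151, 153 and 164 with DMSO and 109, 116 and 132 with Mi-2 (-0.39 ± 0.09, edgeR adjusted p = 0.0281), a call that held only when DMSO library 1 or Mi-2 library 3 was dropped (highest adjusted p 0.114). RPA2 had CPM of 62.1, 62.6 and 67.5 with DMSO and 45.4, 43.2 and 48.6 with Mi-2 and fell 1.40-fold (-0.49 ± 0.08, edgeR adjusted p = 0.00882), a call that held with any library left out. RPA3, the small subunit, had CPM of 5.92, 5.92 and 5.49 with DMSO and 5.76, 6.21 and 6.75 with Mi-2. These ranges overlapped, and RPA3 was the only one of the 53 genes with a positive value (0.11 ± 0.15, edgeR adjusted p = 0.689), which was -0.01 on the log2(TPM + 1) scale. Chromatin assembly factor 1 places new histones behind the fork, and both listed genes fell. CHAF1A had CPM of 134, 152 and 141 with DMSO and 64.8, 66.7 and 92.7 with Mi-2 (-0.93 ± 0.14, edgeR adjusted p = 0.00507), and CHAF1B had CPM of 35.4, 34.1 and 36.7 with DMSO and 17.6, 17.7 and 23.1 with Mi-2 (-0.86 ± 0.12, edgeR adjusted p = 0.00495).

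Libraries of a group were not alike. Mi-2 library 3 had the highest CPM of its group in 47 of the 53 genes and in all 44 that were called lower, against 56.3% of all 969 genes called lower. DMSO library 3 was the highest of its group in 36 of the 53 and in 32 of the 44, against 42.8% of all genes called lower. Mi-2 library 1 was the lowest of its group in 37 of the 53. Over the 44 called genes the median log2 difference from the DMSO mean was -1.09, -1.0 and -0.62 in Mi-2 libraries 1, 2 and 3, and it was -0.05, -0.04 and 0.07 in DMSO libraries 1, 2 and 3. The summed TPM of the 53 genes was 2783, 2969 and 2886 with DMSO and 1481, 1584 and 1934 with Mi-2, so the groups did not overlap. The labels name no batch for any library. With a library left out, 37 to 45 replication genes were called lower, fewest without DMSO library 3 or Mi-2 library 1 and most without Mi-2 library 3. Of the 44 called genes, 37 kept the call in all 6 fits, and CDC6, POLA2, POLD2, CHTF18, FEN1, LIG1 and RPA1 lost it in at least 1.

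**Figure D3:**
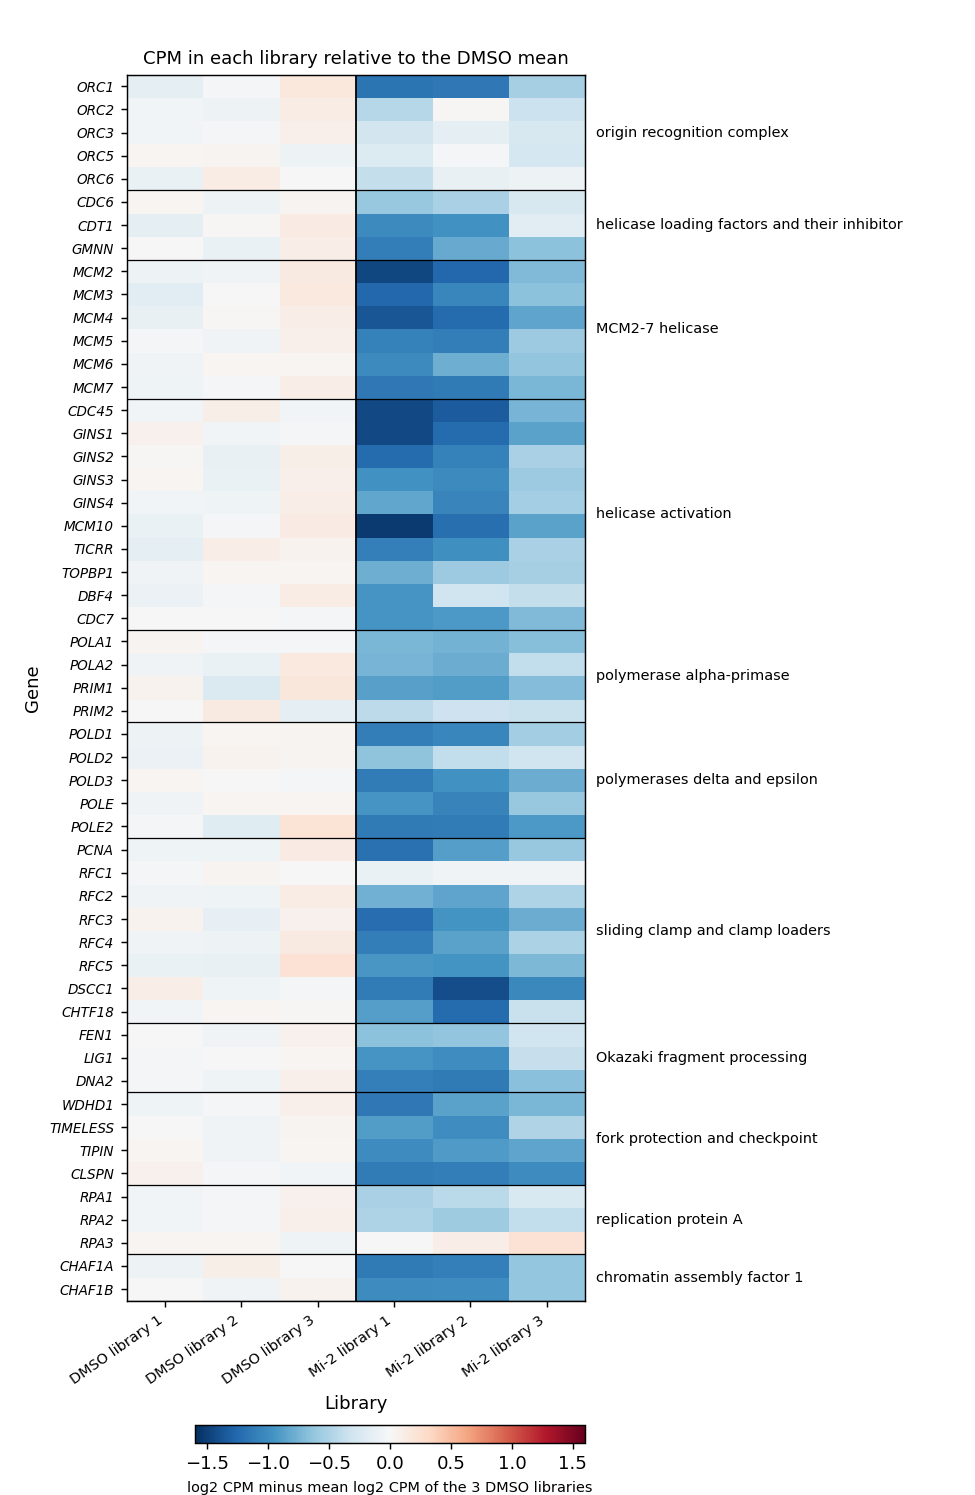
Columns are the 6 libraries and rows the 53 replication genes by sub-complex. Colour gives log2 CPM minus the mean log2 CPM of the 3 DMSO libraries (blue lower, red higher), and the third Mi-2 column is paler than the other two in most rows, with medians of -1.09, -1.0 and -0.62 over the 44 called genes.

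To compare partners directly, the log2 ratio of 2 genes was taken within each library for 14 pairs of partner genes, which does not depend on scaling between libraries. In 6 pairs the ratios of the groups did not overlap, with an exact two-sided permutation p of 0.1, the smallest that 3 against 3 libraries allows (0.233 after Benjamini-Hochberg adjustment over the 14 pairs). No pair could therefore pass 0.05. How often the ranges separate in other pairs of genes was not counted, so the count of 6 is descriptive. The ratios also restate the fold changes given above, such as -0.98 for RFC3 and -0.08 for RFC1, and are not separate evidence. The widest shift was in RFC3 to RFC1, at -1.48, -1.76 and -1.51 with DMSO and -2.68, -2.48 and -2.32 with Mi-2, a difference of -0.91 ± 0.14 (SE). ORC1 to ORC2 was -0.04, 0.14 and 0.14 with DMSO and -0.62, -1.08 and -0.10 with Mi-2 (difference -0.68 ± 0.29). Mi-2 library 3 came close to the DMSO range there, and dropping Mi-2 library 2 gave -0.44 and dropping Mi-2 library 3 gave -0.94.

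POLD3 to POLD2 differed by -0.51 ± 0.07, GINS1 to GINS3 by -0.33 ± 0.10, MCM10 to MCM7 by -0.19 ± 0.10 and RPA3 to RPA1 by 0.50 ± 0.08, each with separate ranges. From deposited TPM the last was 0.30, that of GINS1 to GINS3 was -0.56 and that of POLD3 to POLD2 was -0.40. MCM10 to MCM7 differed by -0.10 without Mi-2 library 1. In the other 8 pairs the groups overlapped. DBF4 to CDC7 differed by 0.31 ± 0.18 and PRIM1 to PRIM2 by -0.45 ± 0.21. With a library dropped these ran from 0.17 (Mi-2 library 2) to 0.47 (Mi-2 library 1) and from -0.64 (DMSO library 2) to -0.29 (DMSO library 3). MCM4 to MCM2 differed by -0.01 ± 0.08, CHAF1B to CHAF1A by 0.07 ± 0.08, ORC6 to ORC3 by 0.03 ± 0.11, TIPIN to TIMELESS by -0.12 ± 0.13, POLE2 to POLE by -0.19 ± 0.14 and CDT1 to GMNN by 0.14 ± 0.21. CDT1 to GMNN was -0.04 with Mi-2 library 3 dropped, 0.06 with DMSO library 1 dropped and 0.29 with Mi-2 library 2 dropped. TIPIN to TIMELESS was -0.23 with Mi-2 library 2 dropped and 0.00 with Mi-2 library 3 dropped, and POLE2 to POLE was -0.30 with DMSO library 2 dropped and -0.09 with DMSO library 3 dropped. The differences nearest to 0 also turned sign with the library dropped, from -0.06 to 0.05 for MCM4 to MCM2 and from -0.03 to 0.11 for ORC6 to ORC3, and that of CHAF1B to CHAF1A ran from 0.00 to 0.12. From deposited TPM, ORC6 to ORC3 was -0.11, CDT1 to GMNN 0.27 and POLE2 to POLE -0.07.

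**Figure D4:**
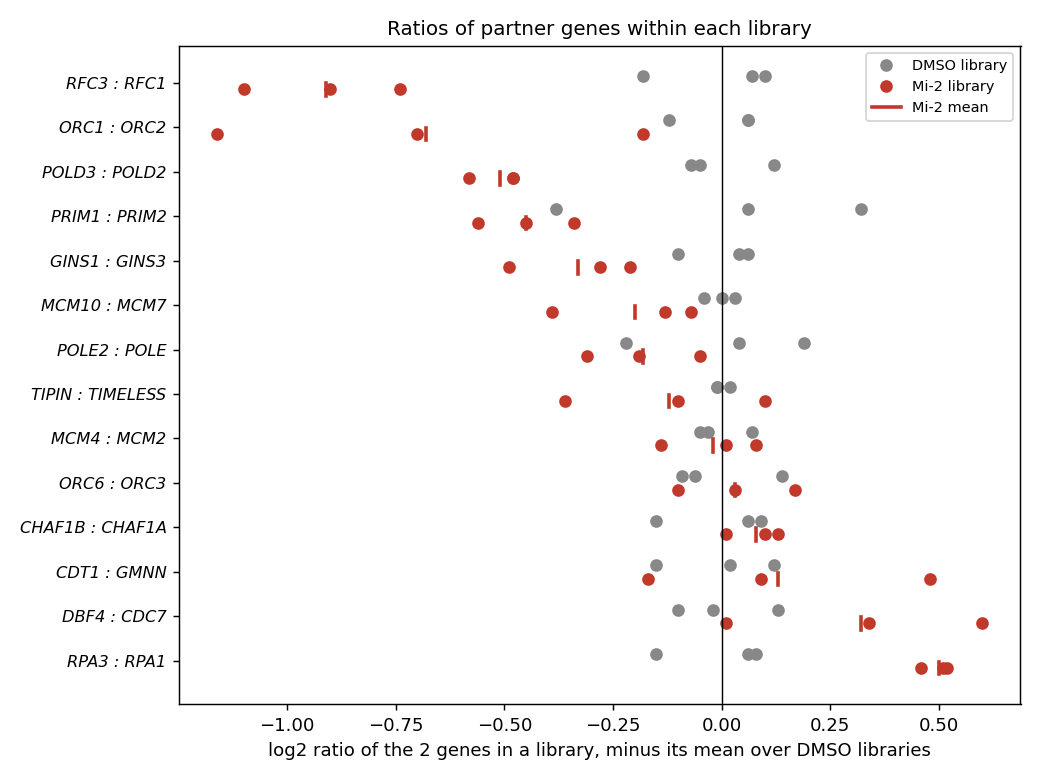
Each row is a pair of genes, and each point is the log2 ratio of the first to the second gene in 1 library, minus its mean over the DMSO libraries (x axis). Grey points are DMSO libraries, red points Mi-2 libraries and red bars the Mi-2 mean. In RFC3 to RFC1 and POLD3 to POLD2 the red points lie clear of the grey ones, and in MCM4 to MCM2 they overlap.

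Other genes that act in replication or beside it were counted from lists. Of 32 further replication genes, 18 fell and 1 rose, with a median of -0.46. Of all genes tested in the same fit, 6.03% were called lower and 5.02% higher. The falls included TONSL, which reads new histones at forks (-1.13 ± 0.14, edgeR adjusted p = 0.00284), ATAD5, which unloads PCNA (-1.07 ± 0.12, edgeR adjusted p = 0.00233), and RECQL4, a helicase of origin firing (-1.0 ± 0.19, edgeR adjusted p = 0.013), whose call was lost in 2 of the 6 fits that left a library out (adjusted p up to 0.0581). POLD4, the smallest subunit of polymerase delta, rose from 19.5 ± 4.11 to 36.8 ± 5.36 CPM (SD, n = 3; log2 fold change 0.92 ± 0.16, edgeR adjusted p = 0.00969), while POLD1, POLD2 and POLD3 fell. Dropping Mi-2 library 1 left 9 falls in this list, and dropping DMSO library 2 or DMSO library 3 left 10. Over all genes, 969 called lower became 302, 390 and 418 in these fits, in that order.

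Of 16 genes of nucleotide supply, 12 fell and 0 rose, with a median of -0.73, among them RRM2, the small subunit of ribonucleotide reductase (-0.93 ± 0.09, edgeR adjusted p = 0.00196), UNG, which removes uracil from DNA (-1.04 ± 0.13, edgeR adjusted p = 0.00284), and DUT, which destroys dUTP (-0.96 ± 0.27, edgeR adjusted p = 0.0472), called in 2 of the 6 fits that left a library out. The count was 7 without Mi-2 library 1, a fit that called 302 of all genes lower. Of 33 genes of homologous recombination, the Fanconi pathway and the checkpoint, 25 fell and 0 rose, with a median of -0.68, among them FANCB (-1.18 ± 0.17, edgeR adjusted p = 0.00507), EXO1 (-1.17 ± 0.17, edgeR adjusted p = 0.00471) and XRCC2 (-1.10 ± 0.17, edgeR adjusted p = 0.00658). Of 39 genes of mitosis, the kinetochore and the spindle, 19 fell and 0 rose, with a median of -0.49 and values from -0.86 to -0.20. The mitotic count depended on the libraries: it was 4 when Mi-2 library 1 was dropped, 7 for either DMSO library 3 or Mi-2 library 2, 8 for DMSO library 2 and 30 for Mi-2 library 3. Over all genes, 969 called lower became 302, 418, 740, 390 and 866 in these fits, in that order. MAD2L1, a spindle checkpoint gene, had the largest of these falls (-0.86 ± 0.10, edgeR adjusted p = 0.00266). Of all genes tested in the main fit, 6.03% were called lower and 5.02% higher. No difference between these lists and the 53 genes was tested. At an unadjusted p under 0.05 in the edgeR fit, 0 genes of nucleotide supply, 0 of recombination and 0 of mitosis were higher, and DESeq2 called 0 higher in each. Of all genes tested, 12.9% were higher at that edgeR level and 6.51% were called higher by DESeq2. In limma on log2(TPM + 1), the count of falls was 8 rather than 18 for the further replication genes, with 0 rises, 12 rather than 25 for recombination and 9 rather than 19 for mitosis, which had 33 in edgeR without the filter on low counts. Over all genes, 381 were called lower in that limma fit and 1541 in edgeR without the filter, against 969.

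Among 31 regulators of the E2F and retinoblastoma pathway, 14 fell and 1 rose, with a median of -0.36, against 6.03% and 5.02% of all genes tested. E2F1, an activator of replication genes, went from 89.3 ± 9.38 to 44.5 ± 7.42 CPM (SD, n = 3; -1.01 ± 0.13, edgeR adjusted p = 0.00314), and E2F8, a repressor of the same family that is itself induced in S phase, from 36.3 ± 1.19 to 17 ± 3.38 CPM (-1.09 ± 0.14, edgeR adjusted p = 0.00314). CCNE2, a cyclin of the G1 to S step, also fell (-0.92 ± 0.14, edgeR adjusted p = 0.0057). RBL2, which encodes the pocket protein p130 of resting cells, rose (0.35 ± 0.10, edgeR adjusted p = 0.0478), a call kept in 2 of the 6 fits that left a library out (adjusted p up to 0.18). Dropping DMSO library 2 left 7 falls and dropping Mi-2 library 1 left 8, and limma on log2(TPM + 1) called 9 falls and 0 rises. Over all genes, 969 called lower became 390, 302 and 381 in these fits, in that order.

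Some of these genes share sequence with others. In the GENCODE 29 annotation 19 of the 53 share exon bases with a gene on the opposite strand, 15 of them over 100 bases. Among these 15 are MCM2, MCM7, GINS3, GINS4 and TICRR, which were called lower, and ORC2, DBF4 and RPA3, which were not. Whether the libraries or the counting kept strand is not given in the sources used here, so reads from such overlaps cannot be told apart. For POLA2, 2012 exon bases are shared with a gene on the same strand. Pseudogenes named after PCNA, FEN1, RPA2, POLD2, DBF4, RFC3 and RFC5 are annotated, and estimated counts divide reads among near-identical copies.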

How the data were processed

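RNA of 3 DMSO and 3 Mi-2 libraries of H929 cells was sequenced, and groups were taken from the labels. The authors deposited estimated counts per gene, not scaled between libraries, and TPM (relative transcript levels corrected for gene length and library total). Per the submitters' processing notes, fastp 0.19.5, HISAT2 2.1.0, StringTie 2.1.0, RSEM 1.3.3 and build GRCh38.p13 were used, with no role given for each. The strand setting is not given in the sources used here.

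Estimated counts were rounded to whole numbers (12.78% of values were not whole). Genes were kept by edgeR's filterByExpr (minimum count 10, total 15), scaled by TMM and tested with the quasi-likelihood test of edgeR 4.0.16 (R 4.3.3), with Benjamini-Hochberg adjustment over all 16082 genes and a threshold of 0.05. The SE of a log2 fold change was derived from the test, as its absolute value divided by the square root of the quasi-likelihood F statistic. The biological coefficient of variation was 14.2%. The code was tested on simulated data. Replicates differed beyond counting noise (chi-square per degree of freedom 16.3 to 23.5). Gene names came from a name table that matched 62625 of 62703 IDs, and positions from GENCODE 29.

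Alternatives were RLE and upper-quartile scaling, no filter, a filter of 1 CPM in 3 libraries, DESeq2 1.42.0, limma-voom, limma 3.58.1 on log2(TPM + 1) and log2(TPM + 0.1) of genes with a mean TPM of at least 1 and on log2(TPM + 1) of genes without that filter, a replicate block, and each library left out. The members and lists were chosen with earlier results of these data known. Library values are given for the largest and smallest change in each sub-complex and for a fixed set of central genes. They are also given for CDC7, CHTF18 and LIG1, which are in neither group. List genes are the 3 largest called changes in each direction.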

Additional observations from a re-analysis of the deposited data

How the results depend on the processing

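The count of replication genes called lower, 44, was 44 with RLE scaling, upper-quartile scaling or the 1 CPM filter, 46 without a filter and with DESeq2, 45 with limma-voom, and 38 and 39 with limma on log2(TPM + 1) and log2(TPM + 0.1). It was 0 with limma on log2(TPM + 1) without the TPM filter, where 47 had an unadjusted p under 0.05 and the smallest adjusted p was 0.0574, and the cause was not tested. With a library left out it was 37 to 45. GINS3, TICRR, POLA2, CHTF18, DNA2 and RPA1 were called in the main fit but not by limma on log2(TPM + 1). Their limma adjusted p ran from 0.0529 for TICRR to 0.146 for GINS3. On that scale GINS3 fell by -0.64, POLA2 by -0.36 and RPA1 by -0.29. Over all genes, 969 called lower and 808 called higher became 1541 and 1221 without a filter, 381 and 229 with log2(TPM + 1), 398 and 249 with log2(TPM + 0.1), 0 and 0 without the TPM filter (3808 genes at an unadjusted p under 0.05), and 302 to 866 and 216 to 715 with a library left out (390 and 246 for DMSO library 2, 418 and 275 for DMSO library 3, 302 and 216 for Mi-2 library 1, 740 and 516 for Mi-2 library 2). The cause was not tested. The change of RFC1, -0.08, was 0.01 and that of RPA3, 0.11, was -0.01 in the 3 limma fits on TPM, and neither passed in any fit. Library numbers are shared between groups. The correlations of deviations from the group mean were 0.409, 0.059 and 0.261 at the same number and ran from -0.326 to 0.079 between unlike numbers. Libraries 1 and 3 of each group correlated best with their own number. These values do not settle whether the numbers pair libraries, and the main fit used no pairing. With the replicate block, edgeR called 47 replication genes lower, and 2035 genes lower and 1791 higher overall. It called 36 rather than 19 mitotic genes lower, 1 rather than 0 genes of nucleotide supply higher and 2 rather than 1 E2F and retinoblastoma regulators higher. Of the 5 gene lists beside the 53 genes, limma on log2(TPM + 0.1) called 8 further replication genes, 12 of recombination, 9 of mitosis and 9 E2F and retinoblastoma regulators lower, as on log2(TPM + 1), and without the TPM filter limma called 0 genes of any list. Mi-2 library 2 correlated more with DMSO library 3 (0.079) than with its own number, so not every library correlated best with its own number. The least counted gene, RPA3, had at least 119 estimated counts per library, and 3 libraries a group limit what can be called.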
